A study of Mus musculus with 36 samples.

Results

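Messenger RNA was compared between the Ikaros line and the control line of the mouse pre-B cell line B3 at 6 h after induction. All 3 Ikaros libraries and all 3 control libraries labelled 6 h entered the comparison, 6 of the 36 libraries of the series, and every one of the 12762 genes in the table was tested. The Ikaros line carried a MSCV retrovirus encoding HA-tagged Ikaros fused to the ERt2 hormone-binding domain, followed by IRES-GFP. The control line carried the same kind of vector with ERt2 and IRES-GFP and without Ikaros. Both lines were sorted for GFP and expanded, and the study does not give their insertion sites. The Ikaros transgene was driven by the virus and came on top of the Ikaros gene that the cells already had. Both lines received 0.5 uM 4-hydroxytamoxifen (4-OHT), the drug that lets an ERt2 fusion enter the nucleus. The groups at 6 h came from culture batches 1, 3 and 4, with a control and an Ikaros culture from each batch. Each value below is given in this batch order. The study's methods place the drug 6 h before harvest, whereas the treatment text of the labels gives a single, shorter time for every sample. The labels also list the drug at 0 h, where the methods describe cells without it that came from separate batches.

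Developing B cells of the bone marrow pass from a dividing large pre-B stage, in which the pre-B receptor and interleukin-7 drive proliferation, to a resting small pre-B stage, in which the immunoglobulin light chain genes are rearranged. The pre-B receptor is built from the Ig mu heavy chain, the surrogate light chain made by Igll1 and Vpreb genes, and the signalling pair Cd79a and Cd79b. Ikaros is a zinc finger protein encoded by Ikzf1 that binds DNA at sites with a GGGAA core, works with the NuRD chromatin complex, and is known for silencing surrogate light chain genes and promoting the exit from the dividing stage. In bulk RNA of this kind, fewer cells that express a gene and less RNA of that gene per cell cannot be told apart.

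Ikzf1 (ENSMUSG00000018654, chr11:11685003-11772926, plus strand of GRCm38) was measured as a check of the labels. The deposited values are log2 levels after correction for GC content, gene length and library preparation, shifted together so that the lowest value is 1. Ikzf1 stood at 14.47, 14.43 and 13.95 in the control libraries and at 20.80, 20.57 and 20.28 in the Ikaros libraries. The groups were far apart, with a log2 difference of 6.26 (SE 0.18, 95% interval 5.89 to 6.64, adjusted p = 4.47e-19, limma), or 76.8-fold. Reads of the transgene and of the cells' own gene are summed in this value. At 0, 2 and 12 h the difference was 5.19, 5.39 and 6.12, so the messenger was high before induction. The drug is known to act on the location of the fusion protein, which RNA does not show.

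Across all genes, 4759 of 12762 differed between the lines at 6 h at an adjusted p under 0.05 (limma, Benjamini-Hochberg over all genes), which is 37.3% of those tested. Of these, 2311 were higher in the Ikaros line (18.1%) and 2448 were lower (19.2%). The median absolute log2 difference of the called genes was 0.73, and 1586 of them (12.4% of all genes tested) differed by a log2 of at least 1, with 703 higher (5.51%) and 883 lower (6.92%). Over all genes the median difference was -0.01, with quartiles of -0.39 and 0.35. The 3 libraries of one line lay wholly beyond the 3 of the other for 5227 genes, or 41.0% of the table, with the Ikaros libraries above for 19.8% and below for 21.2%. Correlations of the log2 levels across genes lay between 0.963 and 0.987 for libraries of the same line and between 0.927 and 0.958 for libraries of different lines, which share the cell line and the normalization. When the 6 libraries were fitted alone, without the spread of the other 30, 2150 genes were called, 2106 of them shared with those above.

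**Figure D1:**
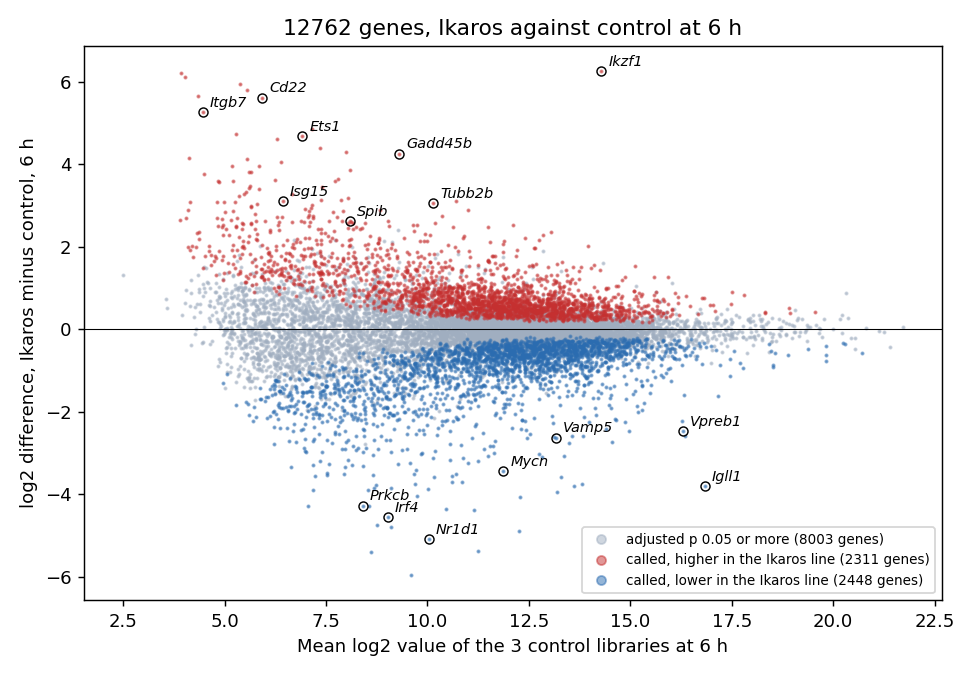
Difference between the lines for every gene at 6 h. The x axis is the mean log2 level of the 3 control libraries and the y axis the log2 difference, Ikaros minus control. Each point is a gene, with 2311 called higher in red, 2448 called lower in blue and 8003 not called in grey. Ikzf1 stands apart at 6.26, and Igll1 is the most highly expressed of the strongly lowered genes that are labelled.

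The largest rises among genes at or above the median level were, after Ikzf1, genes of several unrelated roles. Gadd45b, a stress-inducible regulator of growth arrest, stood at 9.27, 9.48 and 9.15 in the control and at 13.90, 13.05 and 13.71 in the Ikaros libraries (log2 difference 4.26, SE 0.22, adjusted p = 6.67e-14). Its difference was as large at 0 h, at 4.46. Tubb2b, a beta tubulin, stood at 10.26, 10.39 and 9.78 against 13.45, 13.05 and 13.12. Unlike Gadd45b, Tubb2b started level. Its log2 difference was -0.14, 1.63, 3.06 and 4.05 at 0, 2, 6 and 12 h. Neil1, a DNA glycosylase of base excision repair, took a like course with -0.14, 1.49, 2.90 and 4.18 at the same times. For both, the change of the difference from 0 h to 6 h passed the test of the difference itself (adjusted p = 6.7e-08 for Tubb2b and 1.3e-09 for Neil1). Clcn5, a chloride transporter, Rgs7bp, which binds regulators of G protein signalling, and Fat1, an atypical cadherin, were higher by 2.58, 2.49 and 2.48, with differences of 1.82, 1.97 and 1.68 at 0 h. The processed pseudogenes Pgk1-rs7 and Gm7536, at 3.12 and 2.36, also came within the 10 largest rises. Pseudogenes can share reads with near-identical parent genes, and the class is described below. Gm8203, at 2.54, has no gene class in the annotation used here.

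The largest falls were led by Epb4.1l4b, a FERM-domain protein of the cell cortex, and Prkch, a protein kinase C, whose log2 differences were -3.95 and -3.81. Both were lower at 0 h as well, by -1.28 and -1.49. Gm12840 (-3.60, with -3.61 at 0 h) and Pde8a, a cAMP phosphodiesterase (-3.08, with -2.39 at 0 h), were already lower at 0 h. In contrast, Sox15, a transcription factor of the Sox family, and Vamp5, a vesicle protein, were at 0.04 and 0.28 at 0 h and at -2.77 and -2.64 at 6 h. Slco4a1, an organic anion transporter, was lower by 2.74 with a small error (SE 0.09), from 14.55, 14.52 and 14.55 in the control to 11.91, 11.69 and 11.80 in the Ikaros libraries. The remaining members of the 10 largest falls were Igll1 and Vpreb2, which follow, and 0610040J01Rik at -2.63.

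Within the pre-B receptor the surrogate light chain genes were lower at 6 h and the heavy chain gene was higher. Igll1 (ENSMUSG00000075370, chr16:16860671-16863985, minus strand), which encodes the lambda-5 part of the surrogate light chain, stood at 17.07, 16.70 and 16.73 in the control and at 12.88, 13.28 and 12.93 in the Ikaros libraries. All Ikaros libraries lay below all control libraries, with a log2 difference of -3.80 (SE 0.20, 95% interval -4.21 to -3.40, adjusted p = 5.14e-14), or 14.0-fold lower. Vpreb1 (chr16:16868403-16870843, minus strand), whose product pairs with lambda-5, stood at 16.68, 16.07 and 16.12 against 13.47, 14.09 and 13.88, a log2 difference of -2.48. Vpreb2 (chr16:17980428-17981273, plus strand), a near-identical copy, stood at 14.15, 13.61 and 13.65 against 10.54, 9.84 and 9.80, a log2 difference of -3.74. Reads could be split between Vpreb1 and Vpreb2, so the size of either difference is uncertain, while both groups of libraries stayed apart for both genes. Ighm, the mu heavy chain, went the other way, from 17.61, 17.57 and 17.34 to 18.69, 18.31 and 18.21 (log2 difference 0.90, adjusted p = 0.000316). Cd79b was higher by 0.82 and Cd79a lower by 0.59, so the signalling pair was not moved in 1 direction. Vpreb3, which binds newly made mu chains, was at -0.81, a call that was lost without the control library of batch 1 (adjusted p = 0.124) or the Ikaros library of batch 4 (0.0570). All 7 measured genes of the receptor were called, 2 higher and 5 lower, against 18.1% and 19.2% over all genes.

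Much of the gap in the surrogate light chain opened between 2 h and 6 h. Over 0, 2, 6 and 12 h the log2 difference of Igll1 was -0.22, -1.38, -3.80 and -4.43. From 2 h to 6 h it moved by -2.42 (adjusted p = 2.1e-05) and from 6 h to 12 h by -0.63, which did not pass (adjusted p = 0.12). Vpreb1 moved by -1.66 between 2 h and 6 h and Vpreb2 by -2.16, and both passed the test.

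Promoter windows of 4 strongly changed genes are printed because Ikaros sites share a known core. They run from 250 bases before to 50 bases after the gene start in RefSeq on GRCm38.p6, 5′ to 3′ on the gene's own strand. Capitals mark the longer form TGGGAA or its reverse complement TTCCCA. The GGGAA core alone is not marked, and it or its reverse complement also occurs unmarked in the Vpreb2 and Cd22 windows. Igll1 (chr16:16863936-16864235, minus strand) had no match, Vpreb2 (chr16:17980315-17980614, plus strand) had 1, Sox15 (chr11:69654787-69655086, plus strand) had 3 and Cd22 (chr7:30878979-30879278, minus strand) had 1. The RefSeq starts differ from the GENCODE positions given for Vpreb2 and Cd22. The Cd22 window lies wholly inside the GENCODE gene, and the Vpreb2 match lies downstream of the GENCODE start.
Igll1: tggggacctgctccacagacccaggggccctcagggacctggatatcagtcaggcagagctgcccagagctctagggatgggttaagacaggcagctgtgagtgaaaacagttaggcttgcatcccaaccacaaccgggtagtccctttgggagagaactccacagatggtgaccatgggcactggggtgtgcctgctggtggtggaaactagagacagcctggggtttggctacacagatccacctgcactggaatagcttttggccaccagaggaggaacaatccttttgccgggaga
Vpreb2: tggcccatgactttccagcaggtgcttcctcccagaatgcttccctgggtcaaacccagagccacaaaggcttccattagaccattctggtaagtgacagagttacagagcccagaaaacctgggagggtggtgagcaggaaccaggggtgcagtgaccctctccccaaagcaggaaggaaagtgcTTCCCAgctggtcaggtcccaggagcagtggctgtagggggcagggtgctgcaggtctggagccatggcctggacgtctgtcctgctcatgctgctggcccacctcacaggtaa
Sox15: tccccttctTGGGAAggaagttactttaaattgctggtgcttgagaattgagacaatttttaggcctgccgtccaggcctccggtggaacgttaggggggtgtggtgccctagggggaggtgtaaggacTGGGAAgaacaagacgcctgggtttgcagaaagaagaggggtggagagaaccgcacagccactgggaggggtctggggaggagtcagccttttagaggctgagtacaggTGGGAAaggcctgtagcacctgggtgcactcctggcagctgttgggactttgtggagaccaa
Cd22: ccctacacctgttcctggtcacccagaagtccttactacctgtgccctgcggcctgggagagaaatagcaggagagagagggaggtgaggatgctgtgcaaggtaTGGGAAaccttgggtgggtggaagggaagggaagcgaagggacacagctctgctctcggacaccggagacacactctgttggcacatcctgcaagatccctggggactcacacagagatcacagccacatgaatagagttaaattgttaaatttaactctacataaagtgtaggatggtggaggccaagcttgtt

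A promoter window could be matched by symbol for 8586 of the tested genes. TGGGAA on either strand occurred in 22.4% of these windows and in 25.6% of all 32851 windows of the table. It occurred in 19.5% of the windows of genes called higher, 26.7% of those called lower and 21.9% of those not called. Among genes that differed by a log2 of at least 1 the shares were 19.4% for higher and 31.4% for lower genes. The shorter GGGAA core occurred in 61.7% and 68.2% of the windows of higher and lower genes and in 64.4% of all matched windows. These are letter matches in 1 RefSeq window per gene, which need not hold the GENCODE start, and no binding was measured.

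Downstream of the receptor, 19 genes of its signalling pathway were measured. Of these, 4 were higher and 5 lower, against 18.1% and 19.2% over all genes. Prkcb, a protein kinase C that links the receptor to NF-kB, had the largest difference, -4.28, with 8.66, 8.72 and 7.82 in the control and 2.39, 4.09 and 5.87 in the Ikaros libraries. The Ikaros libraries were spread over more than 3 log2 units, and the difference at 0 h was -4.87. Ptpn6 and Inpp5d, phosphatases that dampen signalling, were lower by 0.87 and 0.73. Cblb, a ubiquitin ligase that restrains it, was higher by 0.81. Vav1, Ptprc and Zap70 were higher by 0.39, 0.56 and 0.58 and were named after their values were seen. The adaptor Blnk, which ties the receptor to its downstream kinases, was at -0.48 (adjusted p = 0.0462). This call was lost when any 1 of 5 libraries was left out, with an adjusted p of up to 0.193, but the gene changed course soon after: its difference was 2.34 at 12 h, a move of 2.83 from 6 h (adjusted p = 1.7e-07).

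Of 10 measured genes of V(D)J recombination and end joining, 2 were higher and 1 lower at 6 h. Over all genes 18.1% were higher and 19.2% lower. Lig4, the ligase that seals the broken ends, stood at 10.88, 10.75 and 10.62 in the control and at 12.89, 12.58 and 12.49 in the Ikaros libraries (log2 difference 1.90, SE 0.20, adjusted p = 3.32e-08). At 0, 2 and 12 h its difference was -0.03, 1.42 and 2.85. Dntt, which adds bases at the joints, was higher by 1.38, with an adjusted p of 0.0577 without the Ikaros library of batch 4, and Xrcc5, a part of the Ku end-binding protein, was lower by 0.70. The recombinase genes were not called at this time, with Rag1 at -0.55 (adjusted p = 0.145) and Rag2 at 0.28. At 12 h Rag1 was at 2.54 and Rag2 at 1.61, and the move of Rag1 from 6 h was 3.09 (adjusted p = 2.7e-05).

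Several genes of interleukin-7 signalling, which sustains dividing pre-B cells through Jak1, Jak3 and Stat5, had lower RNA, as several had at 0 h. Of 13 measured genes 3 were higher and 7 lower, against 18.1% and 19.2% over all genes, with a median log2 difference of -0.52. The median had been -0.61 at 0 h, and in the change from 0 h 3 genes passed upward and 1 downward. Il7r, the receptor chain, stood at 14.30, 14.11 and 14.06 in the control and at 13.60, 13.42 and 12.92 in the Ikaros libraries, a log2 difference of -0.85 without overlap. Its difference turned to 0.47 at 12 h, and the move of 1.32 passed the test (adjusted p = 0.00049). The Stat5 targets and feedback inhibitors Socs2, Cish and Socs1 were lower by 2.14, 1.72 and 1.37, Il2ra by 1.53, and Jak3 by 0.52. Pim1 was at -0.99, a call lost without the control library of batch 3 or the Ikaros library of batch 4 (adjusted p up to 0.0683). Cish and Il2ra stood at -2.05 and -2.40 at 0 h, and 5 of the 13 genes were called lower there (3.72% of all genes). The members that were higher were Pim2 (0.98), Stat5b (0.66) and Il2rg (0.62). Il2rg had overlapping libraries and lost its call without the control library of batch 3 or the Ikaros library of batch 1 (adjusted p up to 0.0601). Stat5a, Jak1 and Socs3 were at -0.40, -0.34 and 0.22 and were not called.

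**Figure D2:**
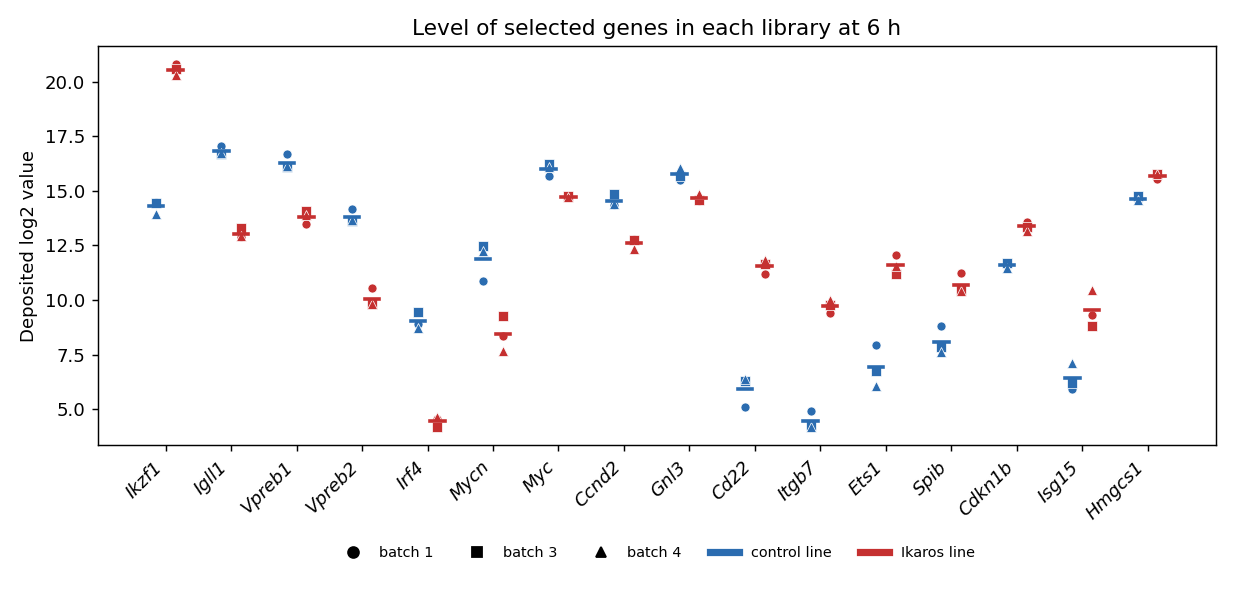
Log2 level of 16 genes in each of the 6 libraries at 6 h. Blue marks are control and red marks Ikaros libraries, circles are batch 1, squares batch 3 and triangles batch 4, and bars are group means. Igll1, Vpreb1, Vpreb2, Irf4, Mycn, Myc, Ccnd2 and Gnl3 lie lower in every Ikaros library, and the other genes shown lie higher in every one.

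Transcription factors of the B lineage moved in both directions, 8 higher and 5 lower of 22 measured, against 18.1% and 19.2% over all genes. Irf4 (chr13:30749226-30766976, plus strand), which drives light chain rearrangement and later plasma cell fate, stood at 8.91, 9.45 and 8.71 in the control and at 4.56, 4.18 and 4.63 in the Ikaros libraries. Its log2 difference was -4.56 (SE 0.38, adjusted p = 6.99e-10), or 23.7-fold lower. The difference was -0.53 before induction and -5.02 at 2 h, and its move of 0.45 from 2 h to 6 h did not pass (adjusted p = 0.66). Spib, an Ets family partner of Irf4, rose instead, from 8.82, 7.83 and 7.61 to 11.26, 10.46 and 10.40 (log2 difference 2.62, adjusted p = 1.46e-07). Before and after, at 0, 2 and 12 h, its difference was -0.48, 0.63 and 5.62, and the move of 3.00 from 6 h to 12 h passed the test (adjusted p = 4.7e-05). Ets1 stood at 7.95, 6.75 and 6.06 against 12.08, 11.20 and 11.55, but its difference of 4.69 was 4.93 at 0 h. Bcl6, a repressor that protects pre-B cells during rearrangement, was higher by 3.15 and had been at 2.00 at 0 h. Foxo1, an activator of the Rag genes and of Il7r, was higher by 0.76, from 14.42, 14.40 and 14.29 to 15.29, 15.04 and 15.04, and this difference was -0.35 at 0 h. Bach2, Pou2f2, Tcf3 and Irf8 were higher by 1.32, 0.72, 0.38 and 0.31. Lef1, Runx1, Bcl11a and Tcf4, the last a partner of Tcf3, were lower by 1.90, 1.66, 1.26 and 0.38. Pax5 and Ebf1, which define B identity, were at -0.01 and 0.39 and were not called.

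Genes of the NuRD complex, the remodelling and deacetylase complex that Ikaros binds, were higher or not called. Of 13 measured members 6 were called higher, 7 had an unadjusted p under 0.05 in that direction and 0 were called lower (limma), against 18.1% and 19.2% over all genes, and over the alternatives tried 1 to 7 were higher and up to 1 lower. Chd3, a remodelling ATPase, stood at 13.47, 13.55 and 13.52 in the control and at 14.55, 14.71 and 14.69 in the Ikaros libraries (log2 difference 1.13, adjusted p = 4.97e-09). Mta3, Mbd2 and Mta1 were higher by 0.56, 0.48 and 0.36, while the other ATPase, Chd4, was at -0.09. Of the Ikaros family, Ikzf3 (Aiolos) and Ikzf5 were at 0.18 and 0.21 and were not called.

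Surface receptors showed some of the widest gaps. Cd22 (chr7:30865402-30880342, minus strand), an inhibitory coreceptor of maturing B cells, stood at 5.11, 6.28 and 6.39 in the control and at 11.18, 11.65 and 11.81 in the Ikaros libraries (log2 difference 5.62, SE 0.46, adjusted p = 3.97e-10). It had been at 5.31 at 0 h. Itgb7 (chr15:102215995-102231944, minus strand), an integrin beta chain of lymphocyte homing, stood at 4.92, 4.26 and 4.19 against 9.40, 9.78 and 9.99 (log2 difference 5.27, adjusted p = 4.73e-09). For Itgb7 the gap had been 0.99 at 0 h, and its growth of 2.88 from 2 h to 6 h passed the test (adjusted p = 0.015). Both genes were low in the control. Among 17 measured receptors of adhesion and migration 7 were higher and 5 lower, against 18.1% and 19.2% over all genes. Cxcr5, a homing receptor of B cell follicles, was at 2.19. Cd44 and Spn, which mark earlier or activated cells, were at -1.79 and -1.58. Of the 12 stage markers of the B lineage 2 were higher and 3 lower, against the same shares. The higher ones were Cd22 and the tetraspanin Cd53 (1.05). The 3 that were lower were Cd93 (-1.50), a marker of immature B cells, Cr2 (-0.59) and Cd37 (-0.43).

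Of 11 measured genes of the Myc network 3 were higher and 3 lower, with Myc and Mycn among the lower ones. Over all genes the shares were 18.1% and 19.2%. Myc stood at 15.67, 16.24 and 16.08 in the control and at 14.76, 14.74 and 14.71 in the Ikaros libraries (log2 difference -1.25, SE 0.17, adjusted p = 1.48e-06). The Ikaros libraries were close together and all below the control. At 0, 2 and 12 h the difference was -0.07, -1.63 and -1.95. Mycn stood at 10.88, 12.49 and 12.25 against 8.37, 9.26 and 7.66, a difference of -3.45 that was -4.63 at 0 h. Of the Mxd and Mxi proteins, which oppose Myc at the same sites, Mxd4 was higher by 1.17 and Mxi1 by 0.63. Mxd3 was at 0.47, and it lost its call without 1 of 4 libraries (adjusted p up to 0.171). Mga, another partner of Max, was lower by 0.59, and Max itself was at -0.09 and not called.

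Ribosome biogenesis genes moved in a single direction. Of 48 measured, 30 were called lower and 0 higher, against 19.2% lower and 18.1% higher over all genes. At an unadjusted p under 0.05, 31 were lower and 0 higher (limma), and every alternative tried called 0 higher and between 17 and 41 lower. The median log2 difference was -0.58, against -0.01 over all genes. Gnl3 (nucleostemin) stood at 15.51, 15.68 and 16.05 in the control and at 14.52, 14.57 and 14.86 in the Ikaros libraries (log2 difference -1.10, adjusted p = 6.43e-06). Nhp2, a pseudouridylation factor, and Rrp1b and Imp4, factors of pre-rRNA processing, were lower by 1.02, 1.01 and 0.96. The abundant nucleolar genes Npm1 and Ncl were at 0.16 and -0.15 and were not called. Over 2, 6 and 12 h the number of members called lower was 12, 30 and 47, where 9.88%, 19.2% and 22.8% of all genes were lower, and the medians were -0.25, -0.58 and -1.06. Of 15 genes of RNA polymerase I, which transcribes ribosomal RNA, 6 were lower and 0 higher, with 8 and 0 at an unadjusted p under 0.05 (limma). Polr1b, its second largest subunit, stood at 13.90, 13.83 and 13.89 against 12.37, 12.39 and 12.27 (log2 difference -1.53, adjusted p = 1.66e-09), and Polr1a was at -0.90.

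**Figure D3:**
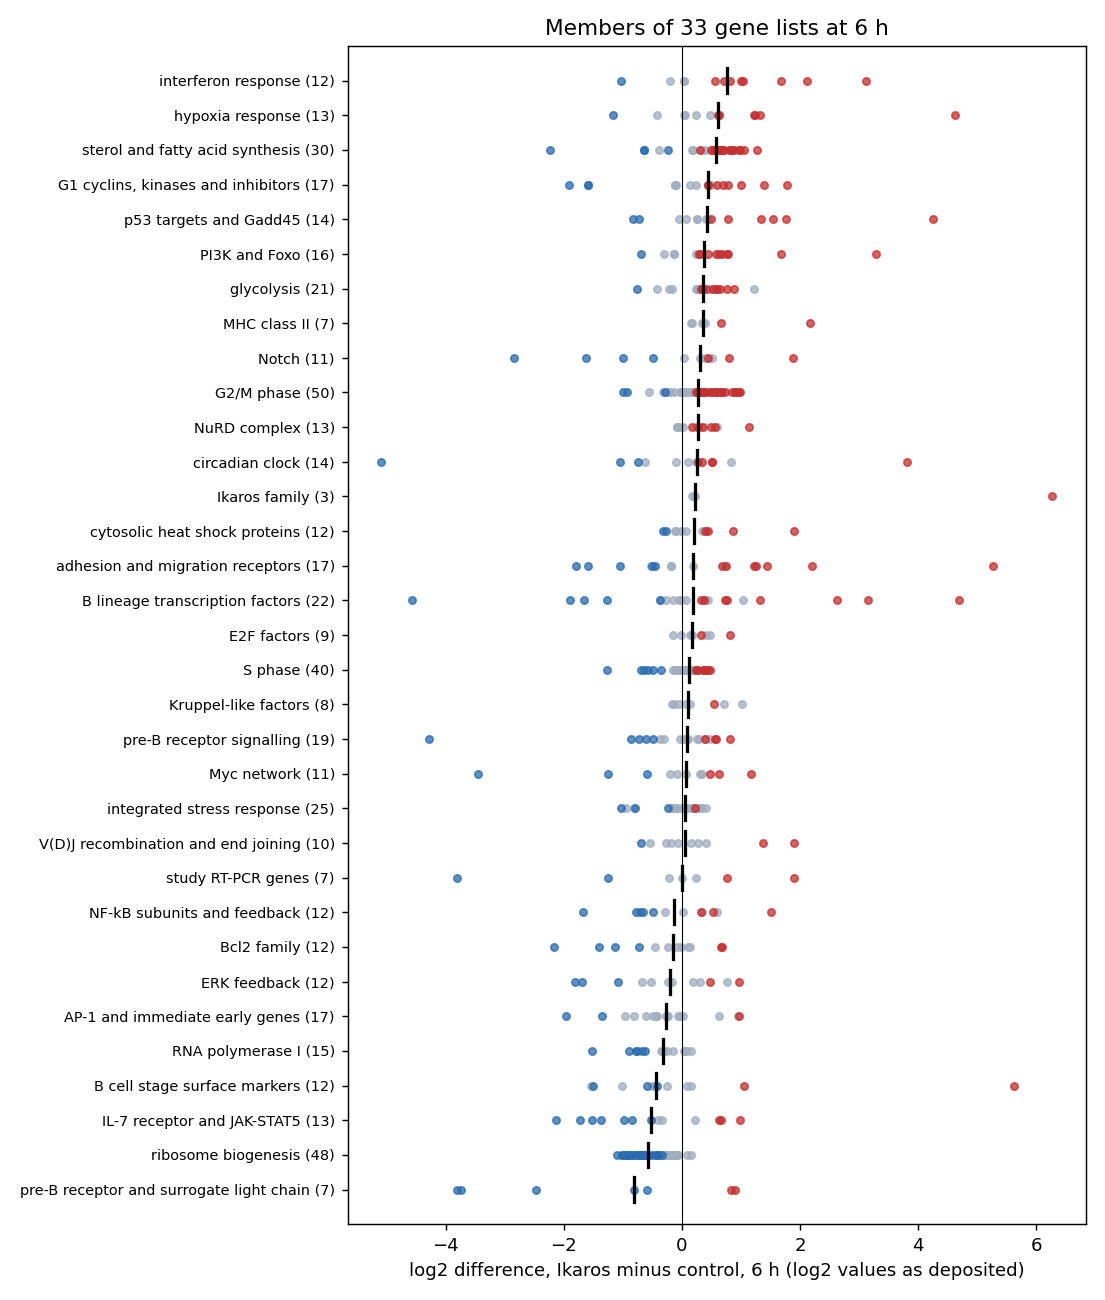
Log2 difference at 6 h, Ikaros minus control, for the measured members of 33 gene lists. Each point is a gene, red where called higher, blue where called lower and grey where not called, and the black tick is the median of the list. Ribosome biogenesis lies to the left of 0 with a median of -0.58, and sterol and fatty acid synthesis to the right with a median of 0.58.

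Among G1 genes Ccnd2 and Ccnd1 were lower and several kinase inhibitors higher. Ccnd2, a D cyclin that carries cells through G1, stood at 14.35, 14.85 and 14.40 in the control and at 12.80, 12.74 and 12.32 in the Ikaros libraries (log2 difference -1.91, adjusted p = 6.44e-09). Cdkn1b (p27), which blocks cyclin-dependent kinases, stood at 11.58, 11.70 and 11.49 against 13.59, 13.34 and 13.18 (1.78, adjusted p = 7.13e-08). Ccnd1 and Cdk6, the kinase partner of D cyclins, were lower by 1.59 each. Ccnd2, Ccnd1 and Cdk6 were the 3 members called lower of 17 measured, and 8 were called higher. Over all genes 19.2% were lower and 18.1% higher. The third D cyclin, Ccnd3, was at -0.12 and was not called. The 8 that were higher included the inhibitors Cdkn2c (1.39), Cdkn1a (0.77) and Cdkn2d (0.70) and the retinoblastoma gene Rb1 (0.99). They also included Ccne1 (0.43) and Ccne2 (0.60), cyclins of the passage from G1 to S phase. Ccnd2 and Ccnd1 had been higher in the Ikaros line at 0 h, by 0.70 and 1.90.

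Of 50 measured G2/M genes 20 were higher and 3 lower, against 18.1% and 19.2% over all genes, with a median of 0.28. Ect2, which acts in cytokinesis, Cdc25b, a phosphatase that starts mitosis, and Mki67 were higher by 0.99, 0.96 and 0.89. Psrc1, Ccnb1 and Mad2l1, the last named after its value was seen and with overlapping libraries, were lower by 1.00, 0.93 and 0.29. This count was sensitive to the libraries used, with 7 higher and 2 lower without batch 1 and 10 and 2 in a fit of the 6 libraries alone. Against the control groups of the other times after 0 h, 18 were higher and 3 lower, with a median of 0.14. Of 40 S phase genes 7 were higher and 6 lower, shares no larger than those over all genes. Tyms, which makes thymidylate, Orc1, a part of the origin complex, and Tk1 were lower by 1.28, 0.70 and 0.65, while Mcm5, Mcm7 and Mcm3 of the replicative helicase were higher by 0.47, 0.43 and 0.41. Of 9 measured E2F factors E2f2 (0.81) and E2f1 (0.32) were higher and 0 were lower, also at an unadjusted p under 0.05 (limma). E2f1 lost its call without the control library of batch 1 or the Ikaros library of batch 4 (adjusted p up to 0.138).

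Sterol and fatty acid synthesis was higher as a group at 6 h. Of 30 measured genes 20 were called higher and 4 lower, against 18.1% and 19.2% over all genes, and the median log2 difference was 0.58. A fit of the 6 libraries alone called 10 higher and 2 lower, and leaving out replicate 2 left 12 and 3. Hmgcs1, an early enzyme of the mevalonate pathway, stood at 14.57, 14.78 and 14.60 in the control and at 15.55, 15.76 and 15.77 in the Ikaros libraries (log2 difference 1.05, SE 0.12, adjusted p = 2.23e-07). The pathway's regulators Srebf1 and Srebf2 were higher by 0.99 and 0.57, and Insig1, which holds back their processing when sterols are plentiful, by 0.97. Scd2, a fatty acid desaturase, was higher by 1.27, with an adjusted p of 0.0627 without the Ikaros library of batch 1. The 4 that were lower were Elovl6, Ebp, Stard4 and Acaca. Elovl6, which lengthens fatty acids, stood at 13.74, 14.16 and 14.06 against 11.61, 11.84 and 11.78 (log2 difference -2.24, adjusted p = 4.61e-13), the other 3 were at -0.64, -0.64 and -0.23. At 2 h 10 members were higher (9.18% of all genes) and 2 lower, and at 12 h 7 were higher (23.0%) and 7 lower. At 0 h 1 was called in each direction, beside 4.61% of all genes higher. Within the Ikaros line itself, 10 of the 30 were higher at 6 h than the mean of 2 h and 12 h. Another 1 was lower, beside 1.47% of all genes called higher and 2.28% lower. Over all genes that test called 479, and 3 in a fit of the compared groups alone. The difference between the lines at 6 h stood above its mean of 2 h and 12 h for 4 members and below for 1. Over all genes these shares were 2.10% and 2.83%. In the change from 0 h 4 members passed upward and 2 downward, beside 7.72% and 8.14% of all genes. In that from 2 h 0 passed upward and 2 downward (limma), beside 2.77% and 3.20%. The median difference of the list moved by -0.36 from 6 h to 12 h, and 10 members passed the test of that fall, beside 7.04% of all genes.

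Of 21 measured glycolysis genes 9 were higher and 1 lower, against 18.1% and 19.2% over all genes, with a median of 0.35. The median had been 0.29 at 0 h, and in the change from 0 h 0 members were called (limma, 1 at an unadjusted p under 0.05). Pgam1, an enzyme of lower glycolysis, was higher by 0.88, and Gapdh, Pkm and Hk1 by 0.41, 0.52 and 0.34. Pgk1 and the glucose transporter Slc2a1, at 0.77 and 0.65, lost their calls without the control library of batch 1 (adjusted p = 0.225 and 0.149) and without others. Pfkfb3 was lower by 0.76 with overlapping libraries, and its adjusted p rose to between 0.0524 and 0.0614 without 1 of 4 libraries. Without batch 1 the list had 1 higher and 1 lower, and in a fit of the 6 libraries alone 2 and 0. Against the control groups of the other times after 0 h it had 14 higher. At 2 h 13 members had been higher (9.18% of all genes), and at 12 h 4 were higher (23.0%) and 4 lower (22.8%). Among the genes followed by RT-PCR in the study, the glycolytic genes Hk2 (-0.22) and Ldha (0.24) and the amino acid transporter Slc7a5 (-0.00) were not called. The study reports for all of them a fall that came late. At 12 h 4 of the 7 RT-PCR genes were lower (22.8% of all genes) and 2 higher (23.0%). The study chose these 7 as genes already known to respond to Ikaros, so they are not independent evidence of a direction, and the other members, Lig4 and Foxo1 (higher) and Igll1 and Myc (lower), are described above. Of 13 hypoxia response genes 6 were higher and 1 lower, against the same shares, with a median of 0.61. At 0 h 4 of them had been higher, with a median of 0.51, and in the change from 0 h 2 passed upward and 2 downward. Egln3, an oxygen-sensing hydroxylase, differed by 4.62, but its difference was 4.99 at 0 h. Egln1 was higher by 1.33, Ndrg1 by 1.22 and Car9 lower by 1.18. Bnip3, at 1.23, lost its call without any 1 of 5 libraries (adjusted p up to 0.223).

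Several measured genes of the interferon response were higher at 6 h. The list held 19 genes, of which Ifit1, Ifit3, Oas1a, Oasl2, Mx1, Rsad2 and Usp18 were not measured. Of 12 measured genes 8 were higher and 1 lower, against 18.1% and 19.2% over all genes, with a median of 0.77. Isg15, a ubiquitin-like protein induced by interferon, stood at 5.93, 6.22 and 7.14 in the control and at 9.32, 8.83 and 10.48 in the Ikaros libraries (log2 difference 3.11, SE 0.45, adjusted p = 5.11e-06). It had been lower in the Ikaros line before, with differences of -1.40 and -1.31 at 0 and 2 h, and was at 1.71 at 12 h, and the move of 4.42 from 2 h to 6 h passed the test (adjusted p = 0.00023). Oasl1 stood at 6.07, 5.40 and 5.22 against 8.20, 7.45 and 7.38, a difference of 2.11 after 0.32 and -0.04 at 0 h and 2 h. Ddx58 (RIG-I), an RNA sensor, was higher by 1.00, and Irf7, the inducible regulator of interferon genes, by 1.68, with an adjusted p of 0.0595 without the control library of batch 1. The sensor Ifih1 went the other way, at -1.04, and lost its call without the control or the Ikaros library of batch 4 (adjusted p up to 0.0888). Of the 12 genes 7 were called upward in the change from 0 h and 4 in the change from 2 h, where 7.72% and 2.77% of all genes were. The mean level of the list was 9.48 to 9.72 in the control libraries, below the median gene mean of 11.72. Once genes under the 25th percentile of mean levels were left out, 5 of the 7 remaining members were higher.

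**Figure D4:**
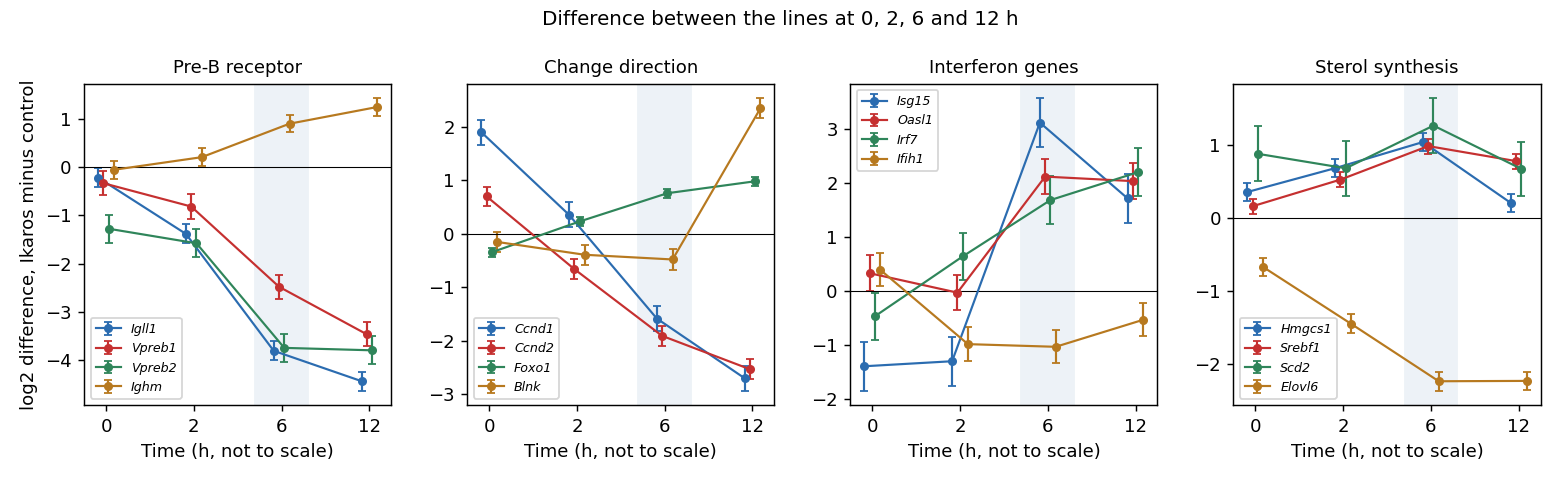
Log2 difference, Ikaros minus control, at 0, 2, 6 and 12 h for 16 genes. Points are differences of group means, bars are standard errors, and the shaded band marks 6 h. Igll1 falls from -0.22 to -4.43, Ccnd1 and Ccnd2 pass from above to below 0, Isg15 jumps between 2 h and 6 h to 3.11, and Hmgcs1 peaks at 6 h with 1.05.

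Other pathways had some members called, to be read beside 18.1% higher and 19.2% lower over all genes. In the circadian clock, 5 of 14 measured genes were higher and 3 lower. Nr1d1 (Rev-erb alpha), a repressor of the clock, stood at 10.37, 9.92 and 9.79 in the control and at 5.36, 5.07 and 4.37 in the Ikaros libraries (log2 difference -5.09, SE 0.24, adjusted p = 1.36e-14). Its difference was -0.31, -4.47 and -4.36 at 0, 2 and 12 h. Nr1d2 and Per3 were lower by 1.05 and 0.74, and Bhlhe41, another repressor, was higher by 3.82 after 3.20 at 0 h. Among 16 PI3K and Foxo genes 10 were higher and 1 lower, with Sesn3 at 3.29 (3.91 at 0 h) and Ccng2 at 1.68, both known Foxo targets, and the catalytic subunit Pik3cd at -0.69. That count fell to 4 higher and 1 lower in a fit of the 6 libraries alone, and to 5 and 1 without replicate 1 or replicate 2. Of 12 genes of NF-kB and its feedback 3 were higher and 5 lower, with Tnfaip3 at -1.68 and Nfkbia at -0.78. Rel was at 1.51, and its call was lost without 1 of 3 libraries (adjusted p up to 0.123). Of 12 ERK feedback genes 3 were lower, Spry1 (-1.81), Dusp7 (-1.69) and Spry4 (-1.08), and 2 higher, Dusp5 (0.96) and Dusp2 (0.48). Of 17 immediate early genes Ier3 and Ier2 were lower by 1.96 and 1.35 and Ier5 higher by 0.96, shares below those over all genes.

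The counts at 6 h that follow stand beside the same 18.1% higher and 19.2% lower over all genes. In the Notch pathway 3 of 11 measured genes were higher and 4 lower, with the coactivators Maml2 and Maml3 at -2.84 and 1.88. In the Bcl2 family, which sets survival, 2 of 12 were higher and 4 lower. The lower ones held both killers and protectors, Bok (-2.17) and Bbc3 (-0.73), and Bcl2l1 (-1.40) and Bcl2l2 (-1.13), and the higher ones were the killers Bcl2l11 (0.66) and Bid (0.68). Of 14 p53 targets and Gadd45 genes 6 were higher, among them Gadd45b and Btg2 (1.76), and 2 lower, Trp53 itself (-0.84) and Bbc3. Of 12 cytosolic heat shock genes 4 were higher and 2 lower. Hspa1b, an inducible Hsp70, stood at 7.66, 7.42 and 6.96 against 9.54, 9.21 and 9.0 (log2 difference 1.90, adjusted p = 1.71e-06), after -0.44 at 2 h. Of 25 genes of the integrated stress response 1 was higher and 3 lower, led by Ddit3 at -1.03, shares below those over all genes, whereas 16 were lower at 12 h (22.8% of all genes). Of 7 MHC class II genes H2-Oa (2.17) and H2-DMb1 (0.66) were higher and 0 were lower, also at an unadjusted p under 0.05 (limma), and 5 were higher at 12 h (23.0% of all genes). H2-DMb1 lost its call without 1 of 3 libraries (adjusted p up to 0.128). Of 8 Kruppel-like factors only Klf13 (0.54) was called higher, a share below that over all genes. Klf2 was at 1.02 with overlapping libraries and not called.

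Set beside the other times, 6 h lay between a smaller and a larger separation of the lines. Against the 4759 genes called at 6 h (37.3%), there were 1063 at 0 h (8.33%), 2432 at 2 h (19.1%) and 5850 at 12 h (45.8%). The labels number the batches at 0 h as 1, 2 and 4, and the methods describe the cells of that time as grown apart from the time course. The change of the difference from 0 h to 6 h passed for 2024 genes (15.9%), 985 upward (7.72%) and 1039 downward (8.14%). From 2 h to 6 h it passed for 761 genes (5.96%, with 2.77% upward and 3.20% downward), and for 1351 with the batch as a replicate block. From 6 h to 12 h it passed for 2043 genes (16.0%), 1144 upward (8.96%) and 899 downward (7.04%). Leaving out replicate 1 (batch 1) or replicate 2 (batch 3, and batch 2 at 0 h) from all groups lowered these 3 counts to 766 and 584, 41 and 43, and 388 and 436. Among the genes with the largest moves from 0 h to 6 h, Anks1 had moved mostly by 2 h, since its difference of -2.60 at 6 h had been -2.09 at 2 h and 0.21 at 0 h. Agpat9, which acts in triglyceride synthesis, rose with 0.18, 0.82, 2.21 and 2.84 over the 4 times. Tac4, a tachykinin known in B cell development, was at -0.09 at both 0 h and 2 h and then at -2.17 and -4.46. Tifa, an adaptor of NF-kB signalling, and Rere, a corepressor, were at -0.17 and 0.48 at 6 h and at 2.94 and 2.52 at 12 h, so their rise came after 6 h.

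The difference at 6 h stood apart from the mean of those at 2 h and 12 h for 629 genes (4.93%), 268 above (2.10%) and 361 below (2.83%), and for 1177 with the replicate block. It fell to 203 without the control library of batch 1 and to 271 without that of batch 4. Within the Ikaros line 479 genes at 6 h differed from the mean of 2 h and 12 h (3.75%), and 746 with the block. It fell to 254 without the Ikaros library of batch 3 and to 140 without that of batch 4. Among those lower were the pre-B markers Blnk at -1.60, Rag1 at -1.26, Igll1 at -0.85 and Il7r at -0.83. Within the control line 78 genes did so (0.611%), and 509 with the block. That count was 0 without the control library of batch 1 (1687 at an unadjusted p under 0.05, limma), 300 without that of batch 3 and 2 without that of batch 4.

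Processed pseudogenes, of which 411 were measured, stood apart as a class. In the comparison at 6 h 95 were higher (23.1%) and 17 lower (4.14%), with a median difference of 0.58. Relative to each gene's mean over all 36 libraries, their median level was -0.41, -0.20 and -0.53 in the control libraries at 6 h, where the 15 control libraries of the other times lay between -0.28 and 0.61. In the Ikaros libraries it was 0.53, 0.11 and 0.02, where the other times lay between -0.51 and 0.48. The median difference of the class was 0.09 at 2 h and -0.51 at 12 h. Pgk1-rs7, Gm7536 and the unclassified Gm8203 in the control line at 6 h were lower than at 2 h and 12 h by 2.17, 1.38 and 2.09 as fitted, and their calls were lost against the other control groups. Among protein-coding genes, 13.6% of the 2747 shortest were higher and 20.9% lower, against 23.6% and 17.3% of the 2746 longest, with medians of -0.08 and 0.06. Of the 534 list genes 272 were called, 273 with the trends in length and GC content removed and 274 of 533 with protein-coding genes alone. Over all genes, with protein-coding genes alone 4370 were called, and with the trends in length and GC content removed 4728 of 12592, with 2462 higher and 2266 lower.

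**Figure D5:**
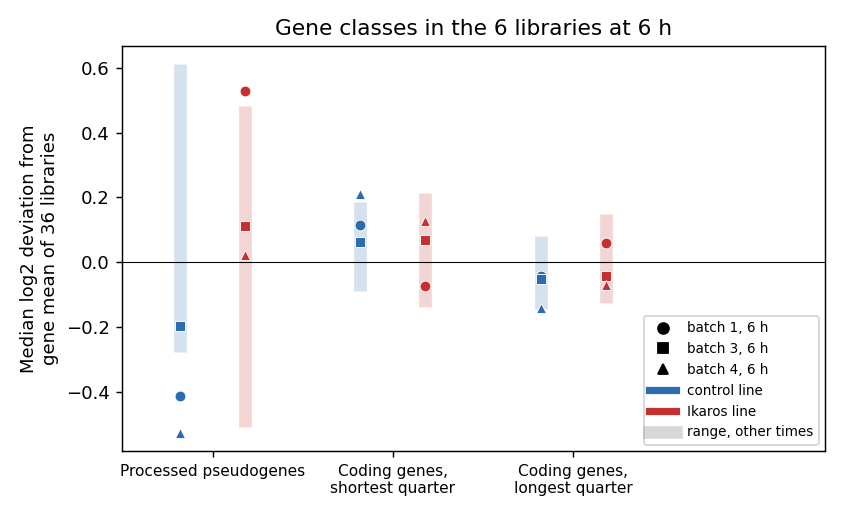
Median deviation of processed pseudogenes and of the shortest and longest protein-coding genes from the genes' own means over all 36 libraries, in log2 units, for each library at 6 h. Blue points are control and red points Ikaros libraries, and pale bars span the 15 libraries of the same line at the other times. Processed pseudogenes lie at -0.41, -0.20 and -0.53 in the control and at 0.53, 0.11 and 0.02 in the Ikaros libraries, and the shortest coding genes reach 0.21 and the longest -0.14 in the control library of batch 4.

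The pre-B identity of both lines was checked against markers. All 12 pre-B markers were measured. Their summed level was 19.52 to 19.75 in the control and 19.02 to 19.12 in the Ikaros libraries at 6 h. Of these markers 2 were called higher and 6 lower, against 18.1% and 19.2% over all genes. Markers of other cells were few: 4 of 12 T cell genes, 2 of 12 myeloid, 5 of 10 erythroid, 3 of 8 plasma cell genes and 1 of 8 fibroblast genes, Vim, were in the table. The T cell markers summed to 11.45 to 12.03 in the control and 12.21 to 12.46 in the Ikaros libraries, with Gata3 (1.32), Cd5 (0.73) and Zap70 (0.58) higher. The calls of Gata3 and Cd5 were lost without single libraries (adjusted p up to 0.252 and 0.112). The myeloid pair summed to 6.01 to 7.35 against 7.82 to 8.79, with Itgam higher by 2.65. The erythroid genes summed to 15.07 to 15.13 against 14.79 to 15.13, with Hbb-b1 (-1.25) and Klf1 (-1.0) lower, calls that were lost without single libraries (adjusted p up to 0.170 and 0.244). Of the plasma cell genes Xbp1 was higher by 0.66, and Derl3 and Mzb1 lower by 1.07 and 0.35. The part of other cells in the gene groups above was not tested.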

How the data were processed

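Polyadenylated RNA of 36 libraries of B3 cells (RIN above 8) was sequenced with a dUTP strand-specific protocol. As their methods and processing notes state, the authors aligned fragments to mm10 with TopHat2, keeping a unique best hit, counted genes with HTSeq, normalized with cqn for GC content and length, and took out differences between library preparations with ComBat in its non-parametric form. What the authors deposited are log2 levels, shifted so that the lowest is 1. The base of the logarithm is not stated in the table, and folds given here rest on base 2. Counts were not used here, and the 3 libraries per group limit the precision. The study states the sequencing depth it aimed for, but the depth reached by each library was not examined here. The adjustment before deposition may make standard errors too small. The strand setting of the counting is not given in the sources used here, so overlapping genes and near-identical copies are uncertain. No 2 libraries at 6 h shared more than 0.118% of their values.

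One limma model (limma 3.58.1, R 4.3.3) with 12 group means was fitted to all genes, and the study states no such test. P-values are two-sided, were corrected over the 12762 genes (Benjamini-Hochberg), and count as called under 0.05. They measure the spread between culture batches. The methods describe no repeated transduction of either line, so spread between transductions is not covered. Positions are from GENCODE M21 on GRCm38, in which 98.7% of the genes were found, and promoter windows are from RefSeq on GRCm38.p6. The code was tested on simulated data.

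The members and the 39 gene lists were chosen with earlier results of these data known. Genes were named by rule: Ikzf1, the 10 largest rises and falls at or above the median level with libraries that do not overlap, the 5 largest changes of the difference between times and of the control line at 6 h, up to 4 called members of each list, and every member of 6 short lists. Further genes were named after their values were seen, to list all members behind a count or to give examples. Some genes counted in the lists are not reported here by name.

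The labels number the culture batches, which pair a control with an Ikaros culture. Over 18 pairs the correlation of the deviations from the group means ran from -0.0620 to 0.507 (median 0.127, with 12 above 0.1), and at 6 h it was 0.141, 0.0723 and 0.203 in batches 1, 3 and 4. Alternatives were a replicate block, a fit of the compared groups alone, a filter at the 25th percentile, quantile normalization, eBayes with trend and robust settings, each replicate left out and other control times. Chosen after seeing the data were single libraries at 6 h left out, length and GC trends removed, protein-coding genes only, and the block with the compared groups alone.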

Additional observations from a re-analysis of the deposited data

Results flagged for a closer look

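Tests of the difference between times singled out the following results, because the effect at 6 h differed from that at another time. The difference between the lines changed from 0 h to 6 h for 2024 genes, from 2 h to 6 h for 761 and from 6 h to 12 h for 2043, and for 629 genes it stood apart at 6 h from the mean of 2 h and 12 h. The causes were not tested.

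Several named genes had opposite signs at the 2 times, each with the change given as later minus earlier on the log2 scale. Between 0 h and 6 h the change was -3.49 for Ccnd1 (1.90 to -1.59), -2.89 for Tbx19 (0.73 to -2.16), -2.61 for Ccnd2 (0.70 to -1.91) and -1.88 for Spry4 (0.80 to -1.08). It was 2.32 for Akap12 (-1.11 to 1.21), 1.61 for Dusp5 (-0.65 to 0.96) and 1.10 for Foxo1 (-0.35 to 0.76). Between 2 h and 6 h it was 4.42 for Isg15 (-1.31 to 3.11) and -0.69 for Tmem258 (0.31 to -0.38).

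Between 6 h and 12 h the change was 3.05 for Fetub (-1.45 to 1.60), 2.83 for Blnk (-0.48 to 2.34), 1.76 for Derl3 (-1.07 to 0.69), 1.32 for Il7r (-0.85 to 0.47), 1.03 for Pet100 (-0.43 to 0.61), 0.93 for 1810058I24Rik (-0.56 to 0.37) and 0.68 for Tmem258 (-0.38 to 0.30). Pet100, 1810058I24Rik and Tmem258 were named because they stood highest in the control line at 6 h against its 2 h and 12 h. A high control level at 6 h lowers the difference at that time, so their sign changes are not independent of the choice. The same holds for genes named for a large change of the difference. These were Fetub and Blnk from 6 h to 12 h, Tbx19 from 0 h to 6 h and Akap12 from 2 h to 6 h. The others came from the gene lists, mostly through a large difference at 6 h. The call of Blnk at 6 h was also lost without single libraries, as given above.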

How the results depend on the processing

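For Ikaros against control at 6 h, 4759 genes were called, 5361 with the replicate block, 2150 when only the compared groups were fitted, 1903 in that fit with the block, and 2640 to 4971 with 1 replicate number left out of all groups. The change from 0 h ranged from 584 to 1954 and that from 6 h to 12 h from 388 to 2090 with replicates or single libraries left out, the latter being 509 in a fit of the compared groups. The change from 2 h was called for 1351 genes with the block, 47 in the compared groups alone and 41 to 806 with replicates or libraries left out. For the difference at 6 h against 2 h and 12 h these values were 1177, 36 and 13 to 826. For control cells at 6 h they were 509, 2 and 0 to 1049, with 11 after the filter on low values and 44 after removing length and GC trends. The counts of 0 came without replicate 1 (572 at an unadjusted p under 0.05, limma) and replicate 2 (1310). For Ikaros cells at 6 h they were 746, 3 and 13 to 556. Fits of fewer samples have fewer degrees of freedom. Of 534 list genes 272 were called, 305 with the replicate block, 155 in the compared groups alone, 138 there with the block, and 171 to 286 with replicates left out.

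Of 200 named genes 172 were called, and 113 kept call and direction under every alternative run. The block changed 5 of the 200, all toward a call. Against control groups at 2, 12, 18 and 24 h in place of 6 h, 31 changed and 7 reversed: 2900097C17Rik to -1.55, Tifa to 0.32, Pet100 to 0.15, 1810058I24Rik to 0.011, Tmem258 to 0.058, N4bp2l1 to -0.37 and Hsph1 to -0.20. The cause was not tested. Genes at low levels and genes with near-identical copies are the least certain, and the depth reached by each library was not examined.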
